A study of Mus musculus with 90 samples.

Results

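Among melanomas that kept growing under an antibody against PD-L1, some held clearly more T cell and cytotoxic transcripts than others. The 23 tumours labelled as non-responders, of 90 tumours in the series, were split by a score, the mean log2 array value of Cd3g, Cd3e, Cd8a, Nkg7 and Gzmb. Tumours above the median score of the non-responders of their own study are called inflamed (7 in study 2 and 4 in study 3), and the others cold (7 and 5). The groups were thus chosen by measured values, so the 5 score genes and their differences are a description with no test.

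All tumours were subcutaneous melanoma allografts with the genotype label Hgftg;Cdk4R24C/R24C, in strain B6.cBrd. The genotype combines a hepatocyte growth factor transgene with a cyclin-dependent kinase 4 that resists its inhibitors, and control and treated tumours share it. The promoter of the transgene, and whether the allografts came from 1 line, are not given in the sources used here. Inflamed and cold non-responders and responders (17 in study 2, 10 in study 3) received a mouse IgG1 antibody against PD-L1 with the D265A change, at 10 mg/kg per the labels, intraperitoneally. IgG tumours (14 and 8) received a control antibody of the same type at 10 mg/kg. The series text also names 20 mg/kg. Responders had lost at least 5% of their volume, and non-responders progressed and were taken at comparable times. The labels carry a separate animal number for every tumour. The numbers of IgG and anti-PD-L1 animals do not overlap in either study. In study 2 the ranges adjoin in a single run, and in study 3 they lie far apart.

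PD-L1, encoded by Cd274, restrains T cells by engaging PD-1. Activated T cells and natural killer cells secrete interferon gamma, which induces guanylate-binding proteins, the immunoproteasome, MHC molecules, T cell attracting chemokines and PD-L1 itself on tumour and myeloid cells. Tumours rich in such transcripts are commonly called inflamed, and tumours poor in them cold. A whole tumour was measured, so fewer cells of a type and less RNA per cell cannot be told apart.

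In study 2 the median score of the non-responders was 7.18. The lowest inflamed tumour had 7.41 and the highest cold tumour 6.96. In study 3 the median was 7.24, held by a cold tumour, and the lowest inflamed tumour had 7.38. The inflamed tumours of study 2 scored 7.41 to 7.81 apart from replicate 14, which scored 10.53, and those of study 3 scored 7.38 to 7.71. Cold tumours scored 5.62 to 6.96 and 6.25 to 7.24. Most inflamed tumours therefore lay close together, 1 lay far above, and the cold tumours were more spread.

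**Figure D1:**
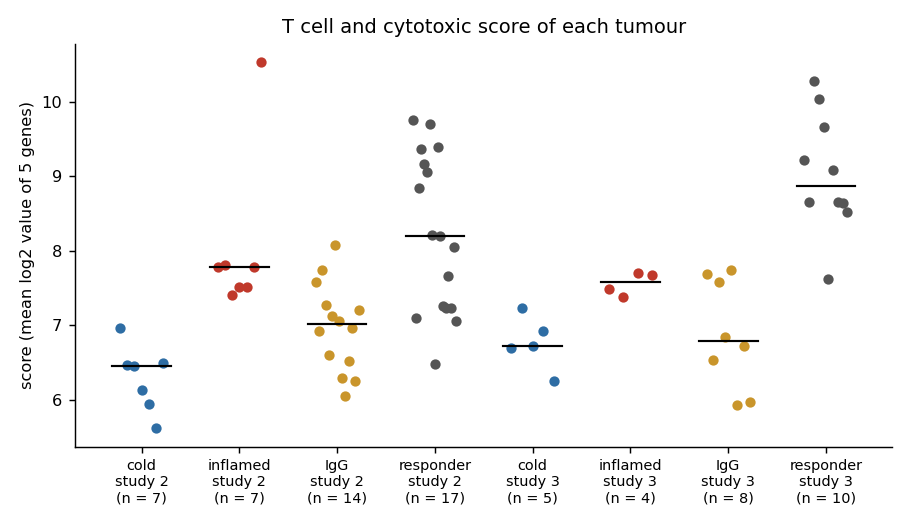
Each point is the score of 1 tumour, the mean log2 array value of 5 T cell and cytotoxic genes, in cold and inflamed non-responders, IgG tumours and responders of both studies, with black lines at group medians. Study 2 inflamed replicate 14, at 10.53, lies above all responders, while the other inflamed tumours lie among the higher IgG tumours.

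Replicate 14 of study 2 stood apart in more than the score. Its B cell list averaged 9.93 against 5.47 to 5.61 in the other study 2 inflamed tumours, its MHC class II list 12.23, and its melanocyte differentiation list 8.31 against 9.53 to 9.85. Values without it are given beside most of the list medians and calls that it moves. In study 3 the difference between the 3 prime and 5 prime control probe sets of Actb and Gapdh, a sign of RNA quality, was 0.21 to 0.54 in inflamed and 0.03 to 0.16 in cold tumours, so that the 2 ranges do not overlap. In study 2 it was -0.02 to 0.07 and -0.06 to 0.09. Its part in the study 3 results was not tested in study 3 alone, and with it as a covariate the list medians over both studies moved by at most 0.04.

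The interferon gamma genes carry much of what follows, so the upstream sequence of the leading ones is shown first. The 5 list members with the largest inflamed minus cold difference that also followed the score in IgG tumours and in responders, and that had a RefSeq entry, were taken (GRCm38.p6, the 250 bases before the transcript start, 5′ to 3′). Capitals mark a GAS match, TTCNNNGAA, an element of interferon gamma induced promoters, or an ISRE match, GAAA and GAAA with any 2 bases between them, the element bound by interferon regulatory factors, on either strand.

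Ubd, chr17:37193642-37193891, plus strand: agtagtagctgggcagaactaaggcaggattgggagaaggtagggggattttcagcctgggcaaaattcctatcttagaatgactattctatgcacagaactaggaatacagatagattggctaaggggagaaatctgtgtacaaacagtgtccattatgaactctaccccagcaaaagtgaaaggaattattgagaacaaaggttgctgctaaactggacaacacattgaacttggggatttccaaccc
Gbp2b, chr3:142594597-142594846, plus strand: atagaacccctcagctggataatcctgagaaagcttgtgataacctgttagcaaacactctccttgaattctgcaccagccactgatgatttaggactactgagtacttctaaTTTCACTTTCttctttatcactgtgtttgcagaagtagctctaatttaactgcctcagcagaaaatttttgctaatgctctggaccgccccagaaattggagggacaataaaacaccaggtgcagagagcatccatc
Cxcl9, chr5:92328080-92328329, minus strand: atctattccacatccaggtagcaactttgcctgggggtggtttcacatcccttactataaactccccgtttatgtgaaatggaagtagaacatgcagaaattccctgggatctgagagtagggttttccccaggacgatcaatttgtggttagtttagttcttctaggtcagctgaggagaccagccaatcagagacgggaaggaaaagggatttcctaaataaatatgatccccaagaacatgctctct
Gbp2, chr3:142620413-142620662, plus strand: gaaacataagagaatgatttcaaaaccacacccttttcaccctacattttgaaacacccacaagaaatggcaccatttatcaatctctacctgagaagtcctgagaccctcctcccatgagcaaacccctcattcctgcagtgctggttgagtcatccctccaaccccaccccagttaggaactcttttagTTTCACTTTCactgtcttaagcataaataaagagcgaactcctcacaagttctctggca
Irf1, chr11:53769764-53770013, plus strand: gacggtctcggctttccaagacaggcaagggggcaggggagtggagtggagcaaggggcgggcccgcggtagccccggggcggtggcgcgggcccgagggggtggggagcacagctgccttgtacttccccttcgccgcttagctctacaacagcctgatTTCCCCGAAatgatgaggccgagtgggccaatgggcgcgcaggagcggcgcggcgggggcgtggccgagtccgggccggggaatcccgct

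Gbp2b and Gbp2, which encode interferon-induced GTPases, each held 1 ISRE match in the same letters. Irf1, an interferon regulatory factor, held 1 GAS match in the window shown, which was chosen from its 2 entries for the most matches. Ubd, a ubiquitin-like modifier, and Cxcl9, a chemokine that draws T cells, held neither in this window. Of the 19 measured interferon gamma genes 13 had an entry, of which 4 had a GAS match and 9 an ISRE match in at least 1 entry. Of all 32851 promoter windows of this length 7.02% held a GAS match and 2.98% an ISRE match. A match is a description of letters, not of binding.

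The first question was what else differed between inflamed and cold non-responders. T cell and natural killer genes outside the score were higher in inflamed tumours, as were interferon gamma, MHC class II, macrophage and chemokine genes, by medians of 0.48 to 1.18 on the log2 scale (0.32 to 1.02 without replicate 14). Melanocyte, cell cycle, hypoxia and oxidative phosphorylation lists had medians between -0.11 and 0.00 (-0.18 to 0.04 without it). Over all 18189 genes tested the median difference was 0.00.

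The label was checked with T cell and cytotoxic genes that the score does not hold. Cd3d, the delta chain of CD3, was at 5.91, 6.73, 6.93, 7.02, 7.07, 7.15 and 7.36 in the cold and at 7.65, 8.02, 8.32, 8.36, 8.44, 9.19 and 11.62 in the inflamed tumours of study 2. In study 3 it was at 6.53, 7.51, 7.86, 8.20 and 8.66 in cold and at 9.22, 9.46, 9.51 and 9.53 in inflamed tumours. The groups did not overlap in either study. Cd2, Cd247, Ccl5 and Prf1, the other measured check genes, were higher by 0.99, 0.67, 1.02 and 0.69. Without replicate 14 these differences were 0.72, 0.41, 0.81 and 0.53. For Cd2, Cd247 and Ccl5 the groups did not overlap in study 2 but did in study 3. There the highest cold values were 6.44, 4.82 and 8.98, and the lowest inflamed values 6.18, 4.72 and 8.91.

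For the lists closest to the score genes no p is given, since the same lymphocytes carry both and the split was made on such genes. Of 19 cytotoxic and natural killer genes all were higher in inflamed tumours, with a median of 0.99 (0.81 without replicate 14). Klrc1 and Klrd1, which form an inhibitory receptor of natural killer and CD8 T cells, were higher by 2.06 ± 0.43 and 1.89 ± 0.42 (limma SE; 11 inflamed, 12 cold). Cxcr6, a chemokine receptor of tissue-resident T cells, was higher by 1.99 ± 0.42. Ifng, which encodes interferon gamma, was at 4.01 to 4.96 in cold and 5.09 to 6.89 in inflamed tumours of study 2, and at 4.03 to 5.16 and 5.40 to 6.52 in study 3. Its groups did not overlap in either study.

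The T cell list had a median of 0.56, with 15 of 15 higher, which fell to 0.33 without replicate 14. Inhibitory and costimulatory receptors had a median of 0.50, with 13 of 13 higher, and 0.29 without it. Pdcd1, which encodes PD-1, was higher by 0.80 ± 0.30 (0.63 without replicate 14). The 7 regulatory T cell genes had a median of 0.10. Foxp3, their defining transcription factor, ranged from 5.18 to 5.54 in cold and 5.11 to 5.80 in inflamed tumours of study 2, and from 6.06 to 6.43 and 5.69 to 6.28 in study 3. These groups overlapped, with a difference of -0.05 ± 0.08.

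**Figure D2:**
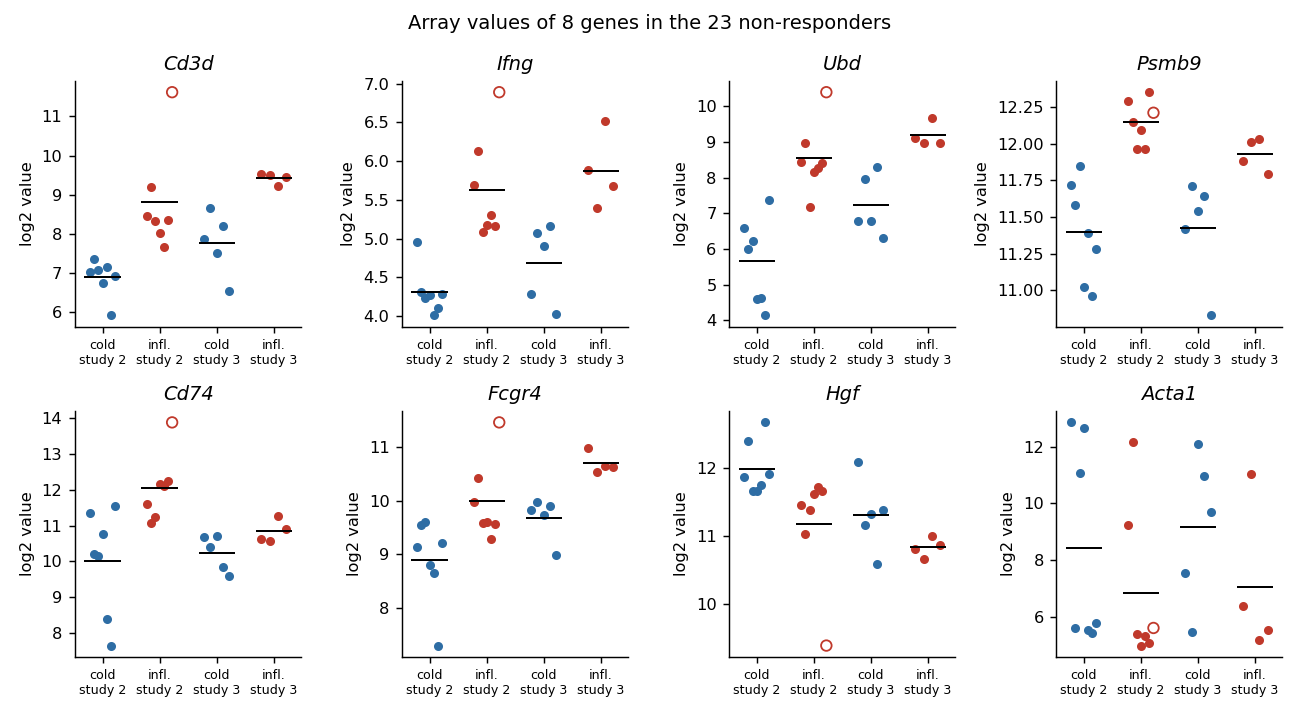
Log2 array values of 8 genes in each of the 23 non-responders, cold in blue and inflamed in red, by study. Lines are group means and the open circle is study 2 replicate 14. Cd3d, Ifng and Psmb9 do not overlap between groups in either study, while Acta1 is high in some tumours of each group.

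In the gene-by-gene test 6 of 18189 genes passed an adjusted p of 0.05 (limma, Benjamini-Hochberg), 5 higher (0.0275% of genes) and 1 lower (0.0055%). An unadjusted p under 0.05 was reached by 1835. The rises were all genes of lymphocytes, on whose transcripts the tumours were split, so their passing is no independent result. Cd3d, Cxcr6 and Klrc1 belong to the lists above. Gimap7, a GTPase of lymphocytes, rose by 1.71 ± 0.37 (adjusted p = 0.0446), and Klra7, a natural killer receptor, by 1.47 ± 0.30 (adjusted p = 0.0289). A second probe set of each had a smaller difference, 0.31 and 0.12, and Klra genes are a family of near copies. Tmed4, which takes part in vesicle transport, fell by 0.27 on the log2 scale ± 0.05 (adjusted p = 0.0289), with -0.04 at its other probe set.

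Without replicate 14 the differences stayed near their size, at 1.56 for Cd3d, 1.76 for Cxcr6, 1.86 for Klrc1, 1.48 for Gimap7, 1.36 for Klra7 and -0.25 for Tmed4. None of the 6 then passed, since 0 genes did by limma and 1541 had an unadjusted p under 0.05. Leaving out each of the 23 tumours in turn gave 0 to 10 calls, with 0 in 8 cases, among them replicates 3, 11 and 14 of study 2 and 1, 2, 3, 7 and 9 of study 3. When the fit took its spread from non-responders alone, 13 genes passed, all higher. They included Ubd, Gbp2b, Psmb9 and Psme1 beside lymphocyte genes.

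Among interferon gamma genes Ubd had the largest difference. It was at 4.14, 4.59, 4.63, 6.01, 6.22, 6.60 and 7.36 in cold and at 7.17, 8.15, 8.26, 8.40, 8.44, 8.96 and 10.39 in inflamed tumours of study 2. In study 3 it was at 6.30, 6.78, 6.78, 7.96 and 8.30 in cold and at 8.97, 8.98, 9.10 and 9.68 in inflamed tumours. The groups overlapped by 1 cold tumour in study 2 and not in study 3. The difference was 2.42 ± 0.54, 5.36-fold, with an adjusted p of 0.0509, just short of the threshold (2.27 and 0.116 without replicate 14).

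Of the 19 interferon gamma genes 18 were higher, with a median of 0.51 that stayed 0.51 without replicate 14, and none passed (background 0.0275%). Gbp2b differed by 1.65 ± 0.47 (adjusted p = 0.192) and Gbp8 by 1.46 ± 0.44 (adjusted p = 0.239). Cd274 was at 7.66 to 8.30 in cold and 8.09 to 9.81 in inflamed tumours of study 2, and at 7.98 to 8.20 and 8.06 to 8.53 in study 3. Both ranges overlapped, and the difference was 0.44 ± 0.17 (adjusted p = 0.37), or 0.35 without replicate 14.

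The 18 type I interferon genes had a median of 0.08, with 0.27 in study 2 and -0.10 in study 3. Oas3, an antiviral enzyme, was their first by p, at 0.49 ± 0.30 (adjusted p = 0.578).

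All 8 MHC class II genes were above 0 in both studies, none past the test, with a median of 1.72 in study 2 and 0.59 in study 3, and of 1.02 over both without replicate 14. Cd74, the invariant chain, was at 7.65 to 11.56 in cold and 11.06 to 13.88 in inflamed tumours of study 2, and at 9.59 to 10.71 and 10.57 to 11.27 in study 3. The ranges overlapped in both studies, with a difference of 1.32 ± 0.41 (adjusted p = 0.241), or 1.16 without replicate 14. H2-DMa and H2-Ab1 differed by 1.16 ± 0.32 and 1.24 ± 0.36 (adjusted p = 0.167 and 0.216).

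The 11 MHC class I genes had medians of 0.63 and -0.01 in the 2 studies, though Psmb9, an immunoproteasome subunit, separated the groups in both. It was at 10.96 to 11.85 in cold and 11.96 to 12.35 in inflamed tumours of study 2, and at 10.83 to 11.71 and 11.79 to 12.03 in study 3. Its difference was 0.62 ± 0.16, and 0.62 without replicate 14 (adjusted p = 0.128 and 0.224). No gene passed the test of the difference between the studies (limma, 0 of 18189), and 1087 had an unadjusted p under 0.05.

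Of 19 macrophage genes 18 had a difference above 0, none past the test, with a median of 0.48 (0.32 without replicate 14). The mean of the list per tumour was 7.64 to 9.20 in cold and 8.56 to 11.16 in inflamed tumours of study 2, where the median tumour was at 8.88 and 8.78, and the highest inflamed value is replicate 14. In study 3 it was 8.85 to 9.33 and 9.28 to 9.88. The groups overlapped in both studies. The 15 neutrophil genes had medians of 0.06 in study 2 and 0.30 in study 3. Fcgr4, an activating antibody receptor, was at 7.30 to 9.60 in cold and 9.28 to 11.46 in inflamed tumours of study 2, and at 8.98 to 9.98 and 10.53 to 10.99 in study 3. The groups overlapped in study 2 and not in study 3, with a difference of 1.05 ± 0.31 (adjusted p = 0.222), or 0.93 without replicate 14. Aif1, an actin-binding protein of macrophages, differed by 0.85 ± 0.32 (adjusted p = 0.357). Irf8, a transcription factor of dendritic cells, differed by 1.14 ± 0.32 (adjusted p = 0.167), although the 14 dendritic cell genes had a median of 0.16. The 14 chemokine and adhesion genes had a median of 0.58 (0.48 without replicate 14), led by Ccl8, a monocyte chemokine, at 1.24 ± 0.38 (limma adjusted p = 0.239). Pdcd1lg2, the other ligand of PD-1, differed by 0.68 ± 0.23 (adjusted p = 0.29).

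B cell and plasma cell lists depended on replicate 14. Their medians were 0.46 and 0.39 with it and 0.14 and 0.21 without it. Ms4a1, which encodes CD20, was at 12.30 in replicate 14 and at 4.40 to 4.80 in the other inflamed tumours of study 2. Jchain, the joining chain of secreted antibodies, was at 13.52 there and at 9.50 in replicate 2 of study 3. The lymphoid tissue list had a median of 0.28, and 0.13 without replicate 14. The fibroblast list went from 0.31 to 0.10.

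Melanocyte and cell cycle lists had small median differences, while Hgf and Gsta4 were lower in inflamed tumours without passing the test. Melanocyte differentiation genes had a median of -0.05 (0.04 without replicate 14), and Mlana, a melanosome protein, differed by 0.29 ± 0.44. The cell cycle list had a median of -0.10 (-0.06 without replicate 14), with Mki67, a proliferation marker, at -0.19 ± 0.19. Hgf was at 11.67 to 12.68 in cold and 9.38 to 11.73 in inflamed tumours of study 2, and averaged 11.31 ± 0.54 (SD, n = 5) and 10.83 ± 0.14 (SD, n = 4) in study 3. The ranges overlapped in both studies, with a difference of -0.65 ± 0.39 (adjusted p = 0.581). Its 3 probe sets ran from -0.94 to 0.15, and the array does not separate the transgene from the host's gene. Gsta4, a glutathione transferase, differed by -0.57 ± 0.40, and by -0.26 ± 0.36 without replicate 14.

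Skeletal muscle genes had the lowest list median, -0.86, with 0 of 15 above 0 and none past the test. Acta1, skeletal actin, was at 11.07, 12.64 and 12.85 in 3 cold tumours of study 2 and at 5.45 to 5.80 in the other 4. It was at 9.23 and 12.17 in 2 inflamed tumours and at 4.99 to 5.61 in the other 5. In study 3 it was at 5.47, 7.55, 9.71, 10.97 and 12.10 in cold and at 5.20, 5.53, 6.39 and 11.04 in inflamed tumours. Muscle transcripts were thus high in some tumours of both groups, with a difference of -1.86 ± 1.21 (adjusted p = 0.609). Egr1, an immediate early transcription factor, was at 9.71 to 11.80 in cold and 8.86 to 10.33 in inflamed tumours of study 2, and differed by -0.76 ± 0.27 (adjusted p = 0.329).

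**Figure D3:**
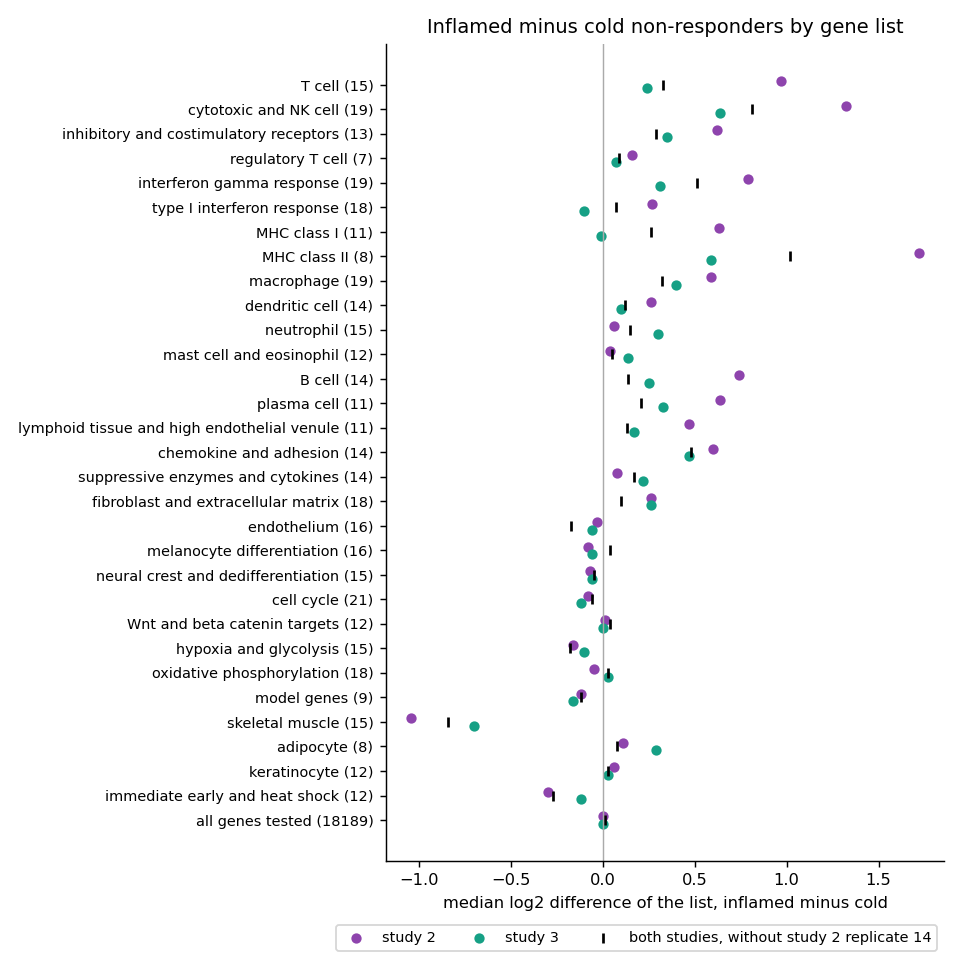
Median log2 difference, inflamed minus cold, of each gene list (members measured in brackets) in study 2 and study 3, with ticks for both studies without study 2 replicate 14. MHC class II, at 1.72 and 0.59, and cytotoxic genes lie to the right in both studies, skeletal muscle lies to the left, and type I interferon and MHC class I lie near or below 0 in study 3.

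Counting whole separations uses each tumour's value rather than a mean. Besides the score genes Gzmb and Nkg7, 19 genes had every inflamed tumour above every cold tumour of its study in both studies, 0.104% of 18189, and no gene had the opposite (0.0%). The number was 19 without replicate 14 as well, but leaving out a tumour can only keep or raise such a number. Of these 19, 6 belong to the lymphocyte lists above (Cd3d, Ctsw, Cxcr6, Gzmk, Ifng and Klrk1). The other 13 are AW112010, Calhm6, Ccl8, Gimap4, Gimap7, Hopx, Iigp1, Il15ra, Ipcef1, Psmb9, Psme1, Trafd1 and Trbv1. Iigp1 is an interferon-induced GTPase, Psme1 a subunit of the proteasome activator, Il15ra presents interleukin 15 to lymphocytes, and Trbv1 is a T cell receptor segment. The separation chose these genes, so it is read further only in other tumours.

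In IgG tumours, which the split did not use, the slope of each gene on the same score was tested (22 tumours, study as a covariate). All 13 passed upward, where 3.95% of 18189 genes did so and 0.616% passed downward (limma, adjusted p under 0.05). Trbv1, Gimap4 and Gimap7 are genes of lymphocytes, as the score genes are, so their passing is no independent result. Which cells carried the others was not tested. Slopes of the 13 ran from 0.41 ± 0.04 for Psme1 to 1.63 ± 0.15 for Calhm6, in log2 units per unit of score. All 13 passed without the 2 tumours farthest from the median score and in study 2 alone, and 8 in study 3 alone, whose 8 tumours called fewer genes. In the 27 responders 10 of the 13 passed upward, against 13% of all genes upward and 17.8% downward. Iigp1, Psmb9 and Psme1 did not, at 0.17 ± 0.10, 0.12 ± 0.07 and 0.12 ± 0.05. By study, all 19 separated genes, these 3 included, passed in study 2 responders (8.22% of all genes did), and 10 in study 3 responders (5.93%), where 16 of 19 slopes were above 0.

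Within non-responders the score was also used as a continuous covariate. With replicate 14, 3518 genes passed, and without it 247, so only the second number is used. Of these, 239 (1.31%) rose with the score and 8 (0.044%) fell. The 8 were Acy1, Adssl1, Alas2, Cttnbp2, Ddah1, Egr1, Ehd1 and Pxdc1. Of the 239, 216 also rose with the score in IgG tumours (90.4% of the 239 and 30.0% of the 719 there) and 204 in responders (85.4%, and 8.63% of the 2363 there). No tumour is shared between these classes, although the score genes and arrays are of 1 kind. The 239 also hold 14 genes of the cytotoxic list and 6 of the T cell list, which share lymphocytes with the score.

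The interferon gamma list followed the score in every class. It had 14 of 19 genes past the threshold upward in non-responders without replicate 14, 17 in IgG tumours and 13 in responders, where 1 passed downward. Within non-responders, 13 of 19 passed in study 2 alone and 4 in study 3 alone, where 118 and 104 of all 18189 genes did. Of all genes 1.31%, 3.95% and 13% passed upward in non-responders, IgG tumours and responders. Ubd had slopes of 2.07 ± 0.15, 2.20 ± 0.20 and 1.04 ± 0.13 (adjusted p = 1.07e-08, 1.77e-07 and 1.7e-06). MHC class II had 5, 7 and 8 of 8, and within non-responders 5 in study 2 alone and 0 in study 3 alone. Cd74 slopes in the 3 classes were 1.34 ± 0.21, 1.52 ± 0.15 and 0.83 ± 0.09 (limma adjusted p = 0.000481, 5.02e-07 and 1.54e-07). Cd274 had 0.27 ± 0.08, 0.28 ± 0.07 and 0.45 ± 0.06 (adjusted p = 0.117, 0.0131 and 7.18e-06).

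For the other lists the counts are read against the shares of all genes, upward 1.31%, 3.95% and 13% and downward 0.044%, 0.616% and 17.8% in non-responders, IgG tumours and responders. Type I interferon genes passed upward in 0 of 18 cases in non-responders, 13 in IgG tumours and 3 in responders. Mx1, an antiviral GTPase, had slopes of 0.24 ± 0.10, 0.80 ± 0.13 and 0.31 ± 0.09 (adjusted p = 0.504, 0.000451 and 0.0108). Macrophage genes passed in 3, 10 and 16 of 19 cases. Fibroblast genes passed upward in 0, 1 and 13 of 18 and endothelial genes in 0, 0 and 13 of 16. Melanocyte genes passed downward in 0, 0 and 7 of 16 and oxidative phosphorylation genes in 0, 0 and 9 of 18. The classes span different score ranges and numbers of tumours. The direct test of the slopes below set only responders against non-responders, and no gene of these lists passed it. Whether slopes in IgG tumours differed from those of the other classes was not tested.

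**Figure D4:**
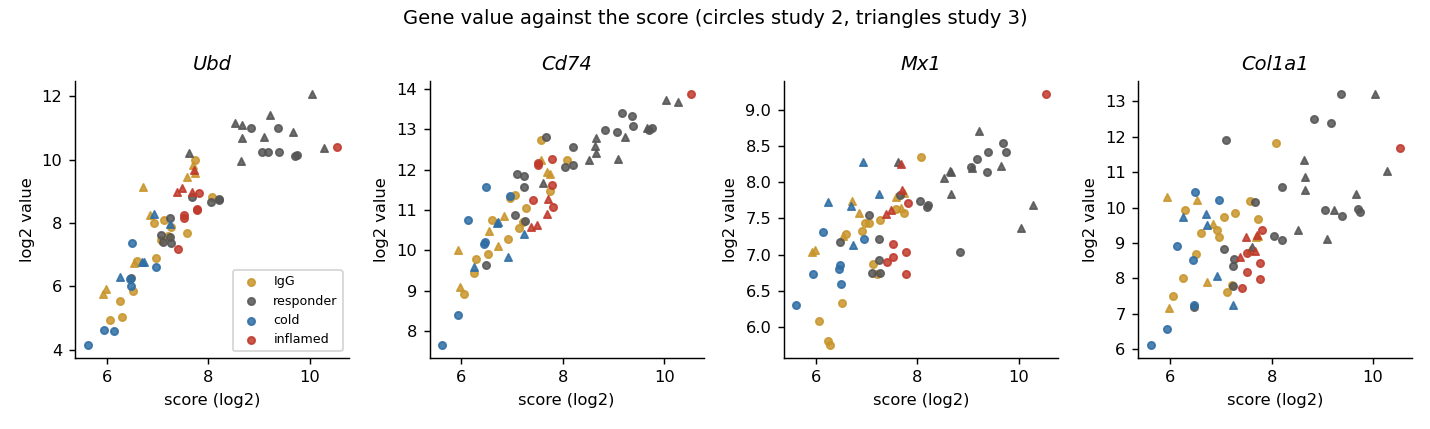
Log2 value of 4 genes against the score in cold and inflamed non-responders, IgG tumours and responders, with circles for study 2 and triangles for study 3. Ubd and Cd74 rise with the score in each class, with slopes of 2.07 and 1.34 in non-responders, while Mx1 and Col1a1, a fibroblast collagen, are more scattered.

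Whether slopes differed between responders and non-responders without replicate 14 was tested directly, in a comparison added after the data were seen. Of 18189 genes 3 passed, all steeper in responders, namely Sh2d2a, an adaptor of T cells, Cd5, a T cell receptor regulator, and Gfi1, a transcription factor (0.41, 0.75 and 0.51, limma adjusted p = 0.0305, 0.0458 and 0.0458). Sh2d2a and Cd5 are genes of T cells, which also carry the score, so their passing is no independent result. Ubd was shallower in responders by 1.03 ± 0.23 in its fitted slope (adjusted p = 0.0508). No gene passed with replicate 14 kept, where 1087 had an unadjusted p under 0.05, or among the 16 non-responders and 8 responders with scores from 6.48 to 7.81, where 584 had one.

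**Figure D5:**
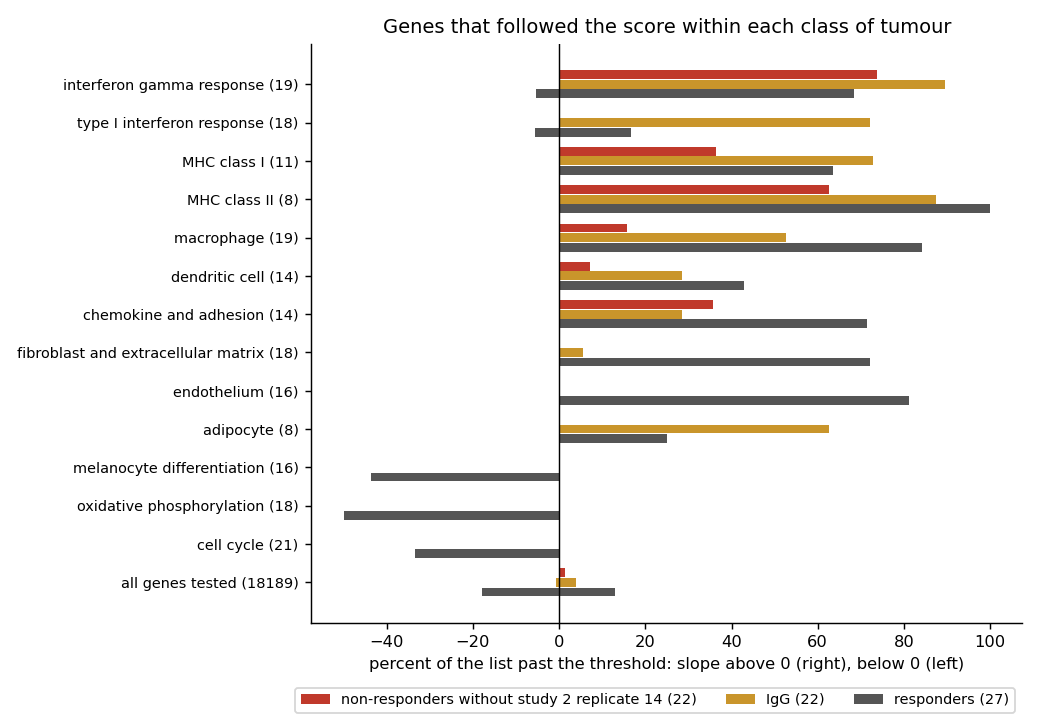
Percent of each gene list past the limma threshold on the score, upward to the right and downward to the left, in non-responders without study 2 replicate 14, IgG tumours and responders (tumour numbers in the legend, members measured in brackets). Interferon gamma and MHC class II genes pass in all 3 classes, and 13 of 16 endothelial genes pass in responders, though none passed the direct test of the slope difference.

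The second question was how inflamed non-responders differed from responders. The score itself still differed. In study 2, 11 of 17 responders scored above the lowest inflamed tumour and none above the highest, which is replicate 14. In study 3 all 10 did, and 9 of them scored above every inflamed tumour. The 5 score genes were lower in inflamed non-responders by a median of 0.84, with 0.23 in study 2 and 1.44 in study 3.

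Inflamed non-responders had 3874 genes above responders (21.3%) and 2387 below (13.1%) past the threshold (limma). With dim genes left out the balance turned, to 1358 above and 2128 below of 9094. Many immune and stromal genes were lower, more so in study 3 than in study 2, where replicate 14 is among the inflamed tumours. Laptm5, a lysosomal protein of immune cells, was at 8.46 to 12.70 in inflamed and 8.24 to 12.20 in responder tumours of study 2, and at 8.09 to 9.19 and 9.50 to 12.87 in study 3. The groups overlapped in study 2 and not in study 3, with a difference of -1.39 ± 0.37 (adjusted p = 0.00814). Col6a2, a matrix collagen, and Tgm2, a crosslinking enzyme, fell by 1.42 and 1.29 (adjusted p = 0.0135 and 0.0047). The macrophage list had 9 of 19 genes lower, the interferon gamma list 10 of 19 and MHC class I 7 of 11. In that order the list medians were -0.32, -0.23 and -0.04 in study 2 and -0.7, -0.84 and -0.5 in study 3. The T cell list had medians of 0.03 in study 2 and -1.24 in study 3, and the B cell list 0.46 and -0.67. The study 2 medians include replicate 14. The other study 2 inflamed tumours had T cell list means of 6.38 to 6.70 and B cell list means of 5.47 to 5.61. The median responder there was at 6.80 and 5.67. Without replicate 14, 5 of 14 B cell genes passed as lower (limma), against 0 with it. Cd274 was lower by 0.57 on the log2 scale ± 0.15 (adjusted p = 0.0077), Tap2, a peptide transporter, by 0.84 ± 0.20 (adjusted p = 0.00455) and Fn1, fibronectin, by 0.67 ± 0.20 (adjusted p = 0.0116).

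Among genes that were higher in inflamed non-responders, Gsta4 was at 6.97 to 12.00 against 7.98 to 12.54 in study 2, and at 10.35 to 10.87 against 7.02 to 9.81 in study 3. Again the groups overlapped in study 2 and not in study 3, with a difference of 1.13 ± 0.35 (adjusted p = 0.0142). Tph2, a serotonin synthesis enzyme, rose by 1.14 ± 0.37 (adjusted p = 0.0172) and Fkbp11, a protein folding enzyme, by 0.80 ± 0.19 (adjusted p = 0.00427). Trpm1, a melanocyte channel, rose by 0.47 ± 0.11 (limma adjusted p = 0.00472). Of the 16 melanocyte genes 3 rose, and of the 18 oxidative phosphorylation genes 8, where 21.3% of all genes did. The melanocyte count is thus not above that share. Egr1 fell by 0.73 ± 0.24 (adjusted p = 0.0174).

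Without replicates 2 and 3 of study 3, which had the largest 3 prime to 5 prime difference, the differences stayed near their size, at -1.42 for Col6a2, -1.26 for Tgm2, -1.23 for Laptm5, 1.12 for Gsta4 and -0.68 for Egr1. With 2 inflamed tumours left in study 3, 4 genes passed (Npy2r, Psca, Rhag and Vmn2r-ps54) and 4753 had an unadjusted p under 0.05. Without replicate 3 alone 2360 passed. Without study 2 replicate 14, 8462 passed, with Laptm5 at -1.66 and Gsta4 at 1.44. In a fit that set all non-responders, cold ones included, against responders with the score as a covariate, 0 passed by limma and 3125 had an unadjusted p under 0.05. The difference of Gsta4 was then 0.01 ± 0.23, of Laptm5 -0.26 ± 0.23, of Tgm2 -0.50 ± 0.17 and of Egr1 -0.52 ± 0.23. With replicate 14 also left out Gsta4 was at 0.28 ± 0.25, and 1 gene passed, Gm5802, at 0.28 ± 0.05.

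The last question was whether cold non-responders differed from IgG tumours. No gene passed (0.0% of 18189, limma), and 735 had an unadjusted p under 0.05. Leaving out each cold tumour gave 0 or 1 call, the 1 being Dleu7 without study 3 replicate 9. The score genes were lower in cold tumours by a median of 0.52. Cold tumours were chosen for a low score and IgG tumours were not split, so lower score genes are no independent result. Ubd differed by -1.20 ± 0.46 and Cd74 by -0.66 ± 0.35. Both genes followed the score in IgG tumours, so the same holds for them. The skeletal muscle list had a median of 1.01, with Acta1 at 1.52 ± 1.03. A missed threshold does not show that the tumours were alike, and in study 3, where the animal numbers lie far apart, cohort and treatment cannot be told apart here.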

How the data were processed

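Total RNA (800 ng) from whole tumours was labelled and hybridised to 3 prime expression arrays, per the labels' protocols. The deposited values are log2 signals of 45101 probe sets on 90 arrays, and the authors name RMA and limma without versions, per the submitters' processing notes. No source used here says if normalization covered both studies at once. Array medians were 5.71 to 5.90, and the number of arrays limits the precision.

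Probe sets that name 1 gene (34958) gave 18194 genes, each read from its probe set with the highest mean. All 90 arrays were fitted with limma 3.58.1 (R 4.3.3), with 1 mean per study and outcome and non-responders split. Contrasts weight both studies equally, ± is limma's SE, and Benjamini-Hochberg covered 18189 genes without the 5 score genes. Tests were 2-sided at 0.05. The procedure was tested on simulated data.

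The members, the 31 gene lists (426 of 460 entries measured) and the tests were chosen with earlier results of these data known. Named genes were the 12 genes that passed with the largest positive and negative difference and 1 sign in both studies (8 in the other comparisons), up to 4 (or 2) members of each list, and a fixed set (Cd274, Pdcd1, Ifng, Foxp3, Hgf, Cdk4, Mlana, Mki67, Gsta4). Genes without overlap, those behind small counts and the check genes were named after their values were seen, and Cdk4 and some others are left out for length. Alternatives left out tumours or dim genes, averaged probe sets, renormalized within study, added array weights or the 3 prime to 5 prime covariate, or used the score as a continuous value.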

Additional observations from a re-analysis of the deposited data

Results flagged for a closer look

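In 192 groups of 4 to 10 tumours, 40 values lay so far from the rest of their group that Dixon's criterion for an outlying value was passed. Chance gives about 1 in 20 groups, where groups are independent and not chosen by their values. Here the split was made on the score, and the 192 groups hold the same tumours in related lists. The 40 are therefore a description and are not set against that rate. Of the 40 values, 27 belong to study 2 inflamed replicate 14. Its score was 10.53, and it was high in the means of the T cell (9.48), cytotoxic and natural killer (8.87), inhibitory and costimulatory receptor (8.10) and regulatory T cell (5.98) lists. It was also high in the MHC class II (12.23), macrophage (11.16), dendritic cell (7.93), neutrophil (6.31), and mast cell and eosinophil (5.31) lists. The same held for its B cell (9.93), plasma cell (10.67), lymphoid tissue (8.33) and suppressive enzyme (6.44) lists. Fibroblast (11.05), endothelium (7.90), neural crest (7.51), adipocyte (8.85) and immediate early (9.31) lists were high too. It was low in melanocyte differentiation (8.31) and cell cycle (9.65). Among single genes Gimap7 (10.22), Cd74 (13.88), Ccl8 (13.42), Jchain (13.52) and Cd3d (11.62) were high and Hgf (9.38) was low.

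Study 2 cold replicate 11 was low in the cytotoxic list (5.29) and in Fcgr4 (7.30), and high in the immediate early list (9.83) and Egr1 (11.80). Study 2 cold replicate 9 was low in the regulatory T cell list (5.25), and cold replicate 1 was high in Ifng (4.96). Study 3 inflamed replicate 2 was high in the macrophage (9.88) and chemokine (8.42) lists and in Jchain (9.50), and low in melanocyte differentiation (9.52). Skeletal muscle transcripts were high in study 2 inflamed replicate 3 (10.04) and study 3 inflamed replicate 3 (8.81). Study 3 cold replicate 9 was low in Fcgr4 (8.98).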

How the results depend on the processing

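No paired analysis was possible because the labels give every tumour its own animal number, and replicate numbers follow accession order and pair nothing. For inflamed against cold non-responders, the 6 calls became 0 with array weights, without study 2 replicate 14 and without it with the 3 prime to 5 prime covariate added, and 2 with dim genes left out, with probe sets averaged or without the tumours nearest the median. They became 12 with quantile normalization within study and 13 with only the non-responders fitted. With the score as a continuous value 3518 genes passed, or 247 without replicate 14. Leaving out each tumour gave 0 to 10 calls, and 0 to 1 for the difference between studies. Foxp3 turned to 0.04 with array weights, 0.02 and 0.03 with the continuous score (with and without replicate 14) and 0.01 without study 3 replicate 2 (-0.09 to 0.01 with 1 tumour left out), and Mlana to -0.35 with the continuous score. Against responders, the 6261 calls became 0 when the cold tumours were added and the score was a covariate, 1 when replicate 14 was left out as well, 4 without study 3 replicates 2 and 3, 3486 without dim genes and 4158 with quantile normalization, and ran from 2360 to 6298 with 1 inflamed tumour other than study 2 replicate 14 left out and were 8462 without that one. Cold against IgG gave 0 to 1. The IgG slope had 513 calls without the 2 farthest tumours and 480 without dim genes, and the responder slope 3387 without tumours low in melanocyte transcripts. The slope difference had 0 calls with replicate 14 kept, in the shared score range and with quantile normalization, and that of Ubd turned to 0.26 in the shared range. The cause was not tested. Settings with study 3 replicates 2 and 3 out, with replicate 14 out beside a covariate, with the farthest tumours out, and all of the slope difference were chosen after seeing the data. Of the values of single genes for inflamed against cold, 1218 kept direction and side of the threshold, 47 crossed to pass, 43 crossed to miss and 1 moved.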
